A study of Mus musculus with 14 samples.

Results

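The genes described here are 10 that rise when cells are short of oxygen: *Vegfa*, *Adm*, *Egln3*, *Slc2a1*, *Pfkfb3*, *Pfkfb4*, *Pdk1*, *Bnip3*, *Ndrg1* and *Ankrd37*. They were looked up by symbol in the deposited read count table, and all 10 were found among its 25212 genes. All 10 were also among the 14252 genes with enough counts to be tested. The genes were chosen by their known response to low oxygen and with measured levels in these same livers already in view, so their values are given as a description. No p is given for them, and where a fit over all genes called any of them the calls are only counted.

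RNA was sequenced from the livers of 14 male C57BL/6 mice made obese on a high-fat diet, with 1 library for each liver. The labels give no age. In the diet-induced obesity group (DIO, 5 livers) the mice had no surgery. In the GB-IL group (4 livers) the gallbladder was joined to the ileum and the common bile duct was tied, so that bile entered the distal small intestine. In the RYGB group (5 livers) the mice had Roux-en-Y gastric bypass. Livers of operated mice were taken 8 weeks after surgery, and the mice stayed on the high-fat diet. The study asked how bile diversion to the ileum compares with gastric bypass. The libraries held between 18223135 and 28656631 counted reads. Levels are given as CPM, read counts relative to the library total after scaling by the trimmed mean of M values (TMM).

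Cells sense oxygen through prolyl hydroxylases, which mark the alpha subunits of hypoxia-inducible factor (HIF) for destruction while oxygen is present. When oxygen is short the subunits persist, pair with the *Arnt* product and switch on genes for glucose uptake, glycolysis, vessel growth and turnover of mitochondria. In the liver, blood loses oxygen on its way from the portal tract to the central vein, so pericentral hepatocytes normally sit in the poorest supply.

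The libraries of a group were not alike, and some stood apart over all tested genes. On the first principal component of all tested genes, which held 48.5% of the variance, GB-IL liver 1 lay at 134, GB-IL liver 2 at 106, GB-IL liver 3 at 20.1 and GB-IL liver 4 at −35.4, the last within the DIO range of −45.7 to −21.9. RYGB liver 5 lay at 17.4 on that component and at 46.2 on the second, above all other livers. GB-IL liver 1 also carried RNA of other tissues. Its 10 skeletal muscle markers summed to 2026 CPM, led by *Acta1*, against at most 3.56 CPM in any other liver. Its 10 squamous epithelium markers, led by *Krt4*, summed to 618 CPM against 47.9 CPM in GB-IL liver 2 and at most 1.61 CPM in the other 12, so that GB-IL liver 2 held some of this RNA too. In GB-IL liver 1, 9 exocrine pancreas markers, led by *Ctrb1*, summed to 1759 CPM against at most 38.8. Results are therefore given with and without RYGB liver 5 and, where it matters, GB-IL liver 1. Fits without GB-IL liver 2 enter only the counts of calls and the ranges over several fits, so leaving out GB-IL liver 1 does not remove all of this RNA. All 14 samples expressed the liver markers: 8 genes shared by all hepatocytes, led by *Alb*, summed to between 101358 and 149579 CPM.

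The main pattern was a single liver. RYGB liver 5 was the highest of the 14 livers for 7 of the 10 genes, *Vegfa*, *Adm*, *Egln3*, *Slc2a1*, *Bnip3*, *Ndrg1* and *Ankrd37*. Among all tested genes that liver was the highest for 8.80%. It was at least 2-fold above every other liver for 2 of the 10 genes, *Ankrd37* and *Egln3*, against 0.744% of tested genes. Averaged over the 10 genes, the standardised log2 level was 1.94 in RYGB liver 5, 0.32 in GB-IL liver 1 and between −0.51 and 0.10 in the other 12 livers. The 3 remaining genes were highest in other livers: *Pfkfb3* in DIO liver 4, with RYGB liver 5 next, *Pfkfb4* in GB-IL liver 3 and *Pdk1* in DIO liver 2.

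**Figure D1:**
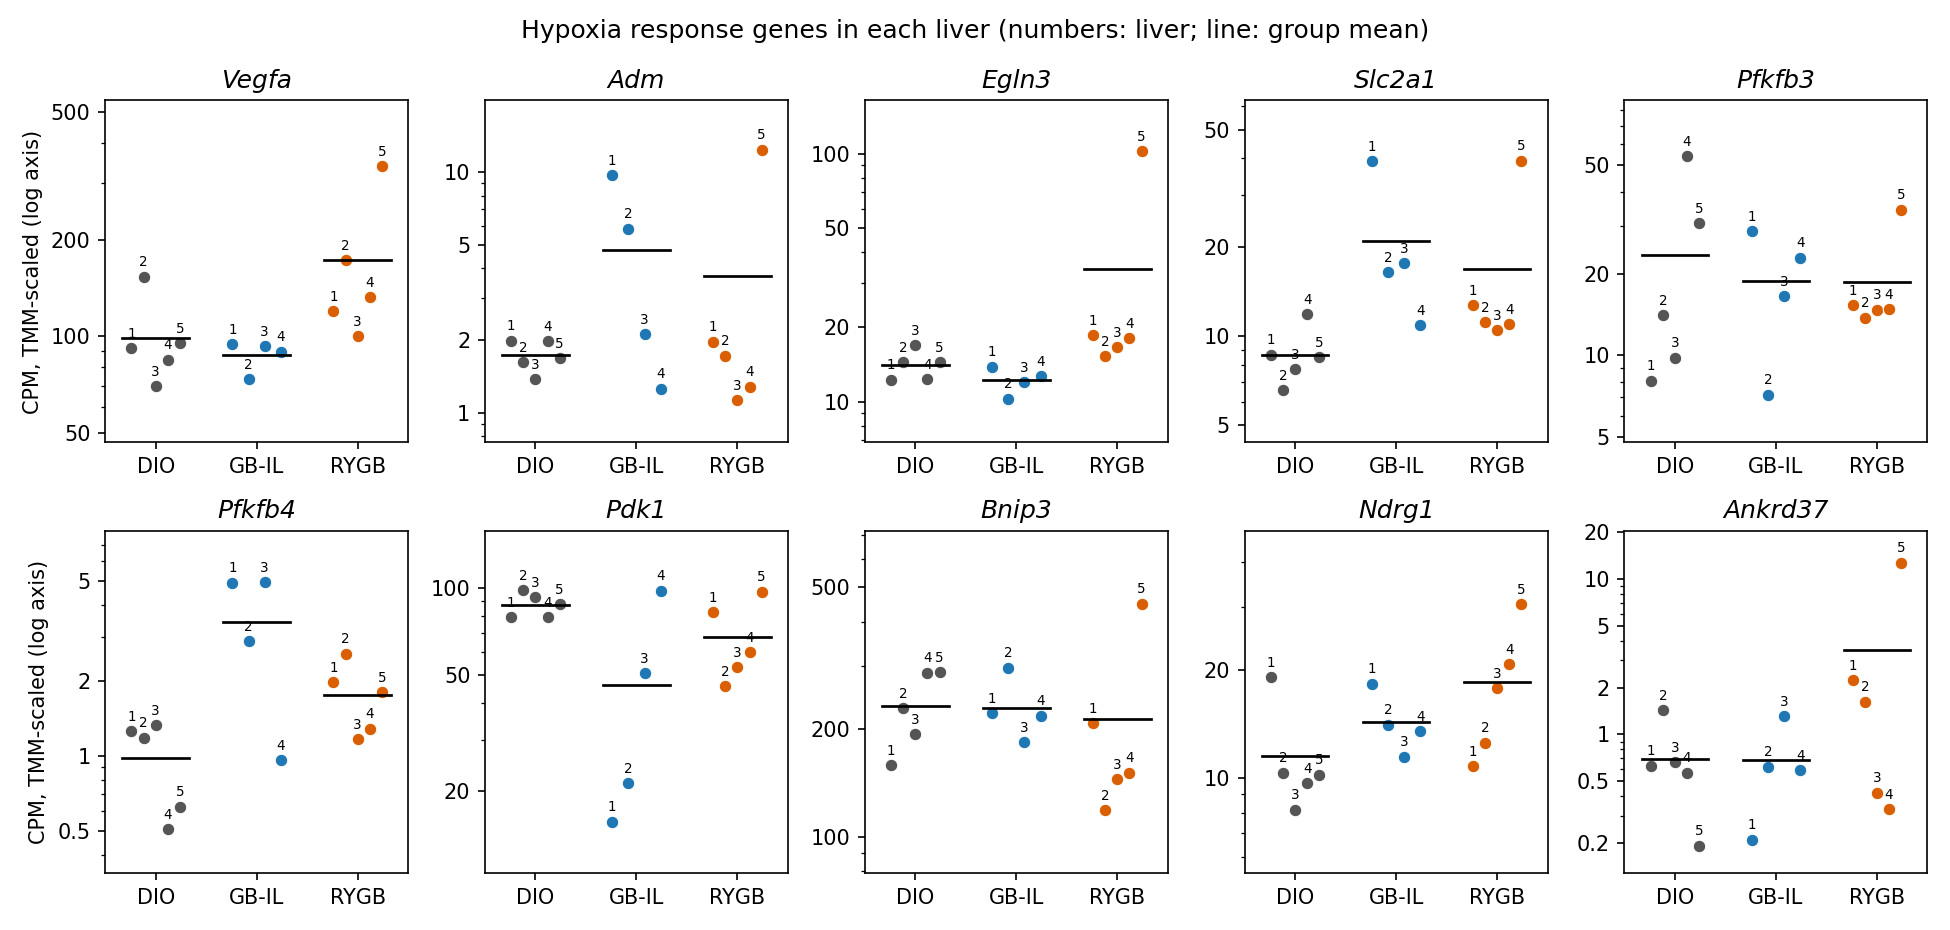
Level of each of the 10 genes in each liver, in TMM-scaled CPM on a log axis, by group; points are livers, numbered, and lines are group means. RYGB liver 5 is the top point of *Vegfa*, *Adm*, *Egln3*, *Slc2a1*, *Bnip3*, *Ndrg1* and *Ankrd37*, while *Pdk1* is lowest in GB-IL livers 1 and 2, at 15.6 and 21.2 CPM.

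*Vegfa* (ENSMUSG00000023951, chr17:46016993-46032369, minus strand; all gene positions are from GENCODE M21 on GRCm38, the mm10 build) encodes the secreted growth factor that drives the growth of blood vessels. Its level in DIO livers 1 to 5 was 91.7, 153, 70.0, 84.6 and 95.1 CPM. After bile diversion, GB-IL livers 1 to 4 had 94.3, 73.4, 93.0 and 89.6 CPM, and RYGB livers 1 to 5 had 119.8, 173, 99.95, 132 and 340.0 CPM. All 4 GB-IL livers lay inside the DIO range, whereas all 5 RYGB livers lay above every GB-IL liver, and 2 of them above every DIO liver. The log2 fold change of RYGB over DIO was 0.81 ± 0.31 (standard error, SE) and fell to 0.42 ± 0.23 without RYGB liver 5. That of GB-IL over DIO was −0.18 ± 0.32. Between the operations, GB-IL over RYGB, it was −0.98 ± 0.33, and −0.60 ± 0.24 without RYGB liver 5.

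*Adm* (ENSMUSG00000030790, chr7:110627661-110629820, plus strand) encodes the precursor of adrenomedullin, a peptide that widens blood vessels. Among unoperated mice, DIO livers 1 to 5 had 1.99, 1.62, 1.37, 1.98 and 1.68 CPM. The operated groups had, in GB-IL livers 1 to 4, 9.72, 5.82, 2.12 and 1.25 CPM and, in RYGB livers 1 to 5, 1.97, 1.73, 1.13, 1.28 and 12.4 CPM. The gene was low in most livers and high in RYGB liver 5 and GB-IL livers 1 and 2, and both operated groups overlapped DIO. With all livers, the log2 fold change of RYGB over DIO was 1.11 ± 0.68, and it was −0.18 ± 0.48 without RYGB liver 5, so its sign rested on that liver. That of GB-IL over DIO was 1.44 ± 0.71, and 0.81 ± 0.74 without GB-IL liver 1.

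*Egln3* (ENSMUSG00000035105, chr12:54178981-54203860, minus strand) encodes one of the prolyl hydroxylases that sense oxygen and is itself switched on by HIF. DIO livers 1 to 5 had 12.2, 14.4, 16.9, 12.3 and 14.4 CPM. GB-IL livers 1 to 4 had 13.9, 10.3, 11.96 and 12.7 CPM, and RYGB livers 1 to 5 had 18.5, 15.3, 16.6, 18.04 and 102.6 CPM. The other 13 livers lay in a narrow band, from 10.3 to 18.5 CPM, and RYGB liver 5 was 5.54-fold above the next highest, RYGB liver 1. The 4 GB-IL livers were all below the 5 RYGB livers. The fitted log2 fold change of RYGB over DIO was 1.28 ± 0.46, and 0.29 ± 0.15 without RYGB liver 5. For GB-IL over RYGB it was −1.49 ± 0.50, and −0.50 ± 0.16 without that liver, and for GB-IL over DIO −0.21 ± 0.49.

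*Slc2a1* (ENSMUSG00000028645, chr4:119108711-119137983, plus strand) encodes a glucose transporter of most tissues that is scarce in hepatocytes. Without surgery, DIO livers 1 to 5 had 8.64, 6.54, 7.73, 11.9 and 8.46 CPM. After surgery, GB-IL livers 1 to 4 had 39.0, 16.4, 17.7 and 10.9 CPM, and RYGB livers 1 to 5 had 12.7, 11.1, 10.5, 11.0 and 39.2 CPM. RYGB liver 5 and GB-IL liver 1 were level at the top, a ratio of 1.00, and 3 of the 4 GB-IL livers were above every DIO liver. The log2 fold change of GB-IL over DIO was 1.28 ± 0.43, and 0.78 ± 0.40 without GB-IL liver 1. That of RYGB over DIO was 0.97 ± 0.41, and 0.40 ± 0.31 without RYGB liver 5.

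*Pfkfb3* and *Pfkfb4* encode enzymes that make and break the sugar bisphosphate that speeds up phosphofructokinase, the pacing step of glycolysis. For *Pfkfb3* (ENSMUSG00000026773, chr2:11471433-11554077, minus strand), DIO livers 1 to 5 had 8.06, 14.02, 9.82, 54.2 and 30.7 CPM. After bile diversion, GB-IL livers 1 to 4 had 28.6, 7.17, 16.5 and 22.9 CPM, and RYGB livers 1 to 5 had 15.3, 13.8, 14.7, 14.8 and 34.4 CPM. The DIO livers themselves spanned almost the whole range, and no operated liver was above them all. The log2 fold changes over DIO, −0.31 ± 0.53 for GB-IL and −0.33 ± 0.50 for RYGB, were smaller than their SE with all livers. They were −0.60 ± 0.59 for GB-IL without GB-IL liver 1 and −0.66 ± 0.51 for RYGB without RYGB liver 5.

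For *Pfkfb4* (ENSMUSG00000025648, chr9:108991778-109032228, plus strand), DIO livers 1 to 5 had 1.26, 1.18, 1.32, 0.509 and 0.625 CPM. The operated groups had, in GB-IL livers 1 to 4, 4.94, 2.88, 4.96 and 0.959 CPM and, in RYGB livers 1 to 5, 1.97, 2.56, 1.16, 1.28 and 1.80 CPM. GB-IL livers 1, 2 and 3 exceeded every other liver, while GB-IL liver 4 lay among the DIO livers, and RYGB liver 5 was sixth from the top. With all livers, the log2 fold change over DIO was 1.80 ± 0.44 for GB-IL and 0.83 ± 0.43 for RYGB, and 0.83 ± 0.46 for RYGB without RYGB liver 5. Without GB-IL liver 1 that of GB-IL was 1.56 ± 0.46.

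*Pdk1* (ENSMUSG00000006494, chr2:71873224-71903858, plus strand) encodes a kinase that holds back the entry of pyruvate into mitochondrial oxidation. Its level in DIO livers 1 to 5 was 79.3, 98.4, 92.8, 79.2 and 87.9 CPM. GB-IL livers 1 to 4 had 15.6, 21.2, 50.8 and 98.0 CPM, and RYGB livers 1 to 5 had 82.7, 45.8, 53.4, 60.0 and 97.0 CPM. Of the operated livers, 3 of 4 GB-IL livers and 3 of 5 RYGB livers were below every DIO liver, and RYGB liver 5 was inside the DIO range. The fitted log2 fold change over DIO was −0.91 ± 0.42 for GB-IL and −0.37 ± 0.39 for RYGB; it was −0.64 ± 0.37 for GB-IL without GB-IL liver 1 and −0.52 ± 0.41 for RYGB without RYGB liver 5.

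*Bnip3* (ENSMUSG00000078566, chr7:138890836-138909519, minus strand) encodes a protein of the outer mitochondrial membrane that marks mitochondria for removal. Among unoperated mice, DIO livers 1 to 5 had 159, 229, 193, 288 and 289 CPM. After surgery, GB-IL livers 1 to 4 had 221, 297, 184 and 218 CPM, and RYGB livers 1 to 5 had 208, 119, 145, 151 and 448 CPM. RYGB held both the highest liver and the 3 lowest of all 14. The log2 fold change of RYGB over DIO was −0.11 ± 0.33, and −0.56 ± 0.24 without RYGB liver 5. For GB-IL over DIO it was −0.01 ± 0.35.

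*Ndrg1* (ENSMUSG00000005125, chr15:66929318-66969640, minus strand) encodes a cytoplasmic protein induced by stress, low oxygen and metals. DIO livers 1 to 5 had 19.1, 10.3, 8.14, 9.68 and 10.2 CPM. After bile diversion, GB-IL livers 1 to 4 had 18.3, 14.1, 11.5 and 13.5 CPM, and RYGB livers 1 to 5 had 10.8, 12.5, 17.7, 20.8 and 30.5 CPM. All 9 operated livers were above the 4 DIO livers other than DIO liver 1, which at 19.1 CPM was above every GB-IL liver and 3 of 5 RYGB livers. The estimated log2 fold change over DIO was 0.32 ± 0.30 for GB-IL and 0.69 ± 0.29 for RYGB, 0.17 ± 0.33 for GB-IL without GB-IL liver 1 and 0.44 ± 0.27 for RYGB without RYGB liver 5.

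*Ankrd37* (ENSMUSG00000050914, chr8:45996902-46005707, minus strand) encodes a small protein of ankyrin repeats. Without surgery, DIO livers 1 to 5 had 0.628, 1.43, 0.661, 0.566 and 0.192 CPM. The operated groups had, in GB-IL livers 1 to 4, 0.210, 0.621, 1.31 and 0.590 CPM and, in RYGB livers 1 to 5, 2.24, 1.63, 0.422, 0.331 and 12.8 CPM. RYGB liver 5, with 369 reads, was 5.70-fold above RYGB liver 1, with 41, and the other livers had between 4 and 33 reads. The fitted log2 fold change of RYGB over DIO was 2.32 ± 0.87, and 0.71 ± 0.64 without RYGB liver 5. That of GB-IL over DIO was −0.01 ± 0.95, and 0.27 ± 1.02 without GB-IL liver 1.

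Per kilobase of exon, and so comparable between genes, the mean DIO level ran from 102.2 CPM per kb for *Bnip3* through 23.1 for *Vegfa*, 11.3 for *Pdk1*, 5.28 for *Egln3*, 3.09 for *Pfkfb3* and 2.47 for *Slc2a1* to 1.74 for *Ndrg1*, 1.07 for *Adm*, 0.452 for *Ankrd37* and 0.201 for *Pfkfb4*. Exons of *Ankrd37* share 349 bases with *Lrp2bp* and 57 with *Ufsp2* on the opposite strand. Those of *Bnip3* share 504 bases with the antisense gene *Gm45507*, those of *Ndrg1* 419 with *Gm17035* and 137 with *Gm2895*, and those of *Slc2a1* 105 with *Gm12868*. The strand setting of the authors' counting was not given in the sources used here, so reads of these pairs may not be separated.

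Many of these fold changes moved with the fit. Over 21 alternative fits, 14 of which drop a single liver, the estimate of GB-IL over DIO (log2) ran from −0.28 to 0.03 for *Vegfa*, 0.47 to 1.75 for *Adm*, −0.28 to 0.02 for *Egln3*, 0.78 to 1.49 for *Slc2a1*, −0.60 to 0.26 for *Pfkfb3*, 1.56 to 2.11 for *Pfkfb4*, −1.59 to −0.62 for *Pdk1*, −0.28 to 0.19 for *Bnip3*, 0.17 to 0.57 for *Ndrg1* and −0.54 to 1.13 for *Ankrd37*. It changed sign in 7 of the 21 for *Bnip3*, 7 for *Ankrd37*, 2 for *Vegfa*, 2 for *Pfkfb3* and 1 for *Egln3*. That of RYGB over DIO ran from 0.41 to 1.02 for *Vegfa*, −0.19 to 1.34 for *Adm*, 0.28 to 1.46 for *Egln3*, 0.39 to 1.11 for *Slc2a1*, −0.68 to 0.25 for *Pfkfb3*, 0.66 to 1.04 for *Pfkfb4*, −0.55 to −0.25 for *Pdk1*, −0.67 to 0.04 for *Bnip3*, 0.43 to 0.95 for *Ndrg1* and 0.70 to 2.76 for *Ankrd37*, and changed sign in 3 of the 21 for *Adm*, 2 for *Bnip3* and 1 for *Pfkfb3*. For *Pfkfb3* both turned positive without DIO liver 4, and for *Pdk1* the lowest GB-IL value came without GB-IL liver 4.

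Over the 10 genes the median log2 fold change over DIO was −0.01 for GB-IL and 0.82 for RYGB, against 0.04 and 0.01 over all tested genes. Without RYGB liver 5 the RYGB median was 0.35. For GB-IL over RYGB the median was −0.18, against 0.03 over all genes, and 0.11 without RYGB liver 5. At a false discovery rate of 0.05, 1 of the 10, *Pfkfb4*, was called in GB-IL over DIO, where 3.26% of all tested genes were called (449 higher and 16 lower). None was called in RYGB over DIO or in GB-IL over RYGB, where edgeR called 0% of all genes in each. At an unadjusted p under 0.05 those last comparisons held 1241 and 3147 genes, DESeq2, fitted without the filter on low counts to 24635 genes, called 94 and 884, and limma with voom and quality weights called 1690 and 115. Of the 10 genes, DESeq2 called 0 in both and voom 1 and 0. With 1 liver left out the number called of the 10 was 0 to 3 in GB-IL over DIO.

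No gene of the 10 separated either operated group fully from DIO, while 4.17% of tested genes did so for GB-IL and 3.53% for RYGB. *Vegfa* and *Egln3* separated the GB-IL livers from the RYGB livers, as did 2.84% of tested genes. Because the genes were chosen with these livers in view, nothing is read from these counts. The comparisons of GB-IL and of RYGB share the same 5 DIO livers.

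The rest of the pathway was followed with 66 other genes of HIF control and HIF response, of which 61 were tested. They too were chosen with earlier results of these livers known, so their counts and p values are a description and no independent support. RYGB liver 5 was the highest of all livers for 30 of the 61 (49.2%) and at least 2-fold above every other liver for 11 (18.03%). Over all tested genes those shares were 8.80% and 0.744%. RYGB liver 5 was the lowest for none of the 61. GB-IL liver 1 was the highest for 14 (22.95%) and GB-IL liver 2 for 9 (14.8%), near their shares of all tested genes, 19.9% and 17.5%. By role, RYGB liver 5 was the highest for 5 of 6 genes of matrix and pH, 6 of 10 of transcription, chromatin and stress, 8 of 18 of glucose transport and glycolysis, 4 of 9 secreted and vascular, 2 of 5 mitochondrial and 5 of 13 HIF subunits and regulators. The median log2 fold change of the 61 over DIO was 0.29 for GB-IL and 0.30 for RYGB, and −0.05 for RYGB without RYGB liver 5.

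**Figure D2:**
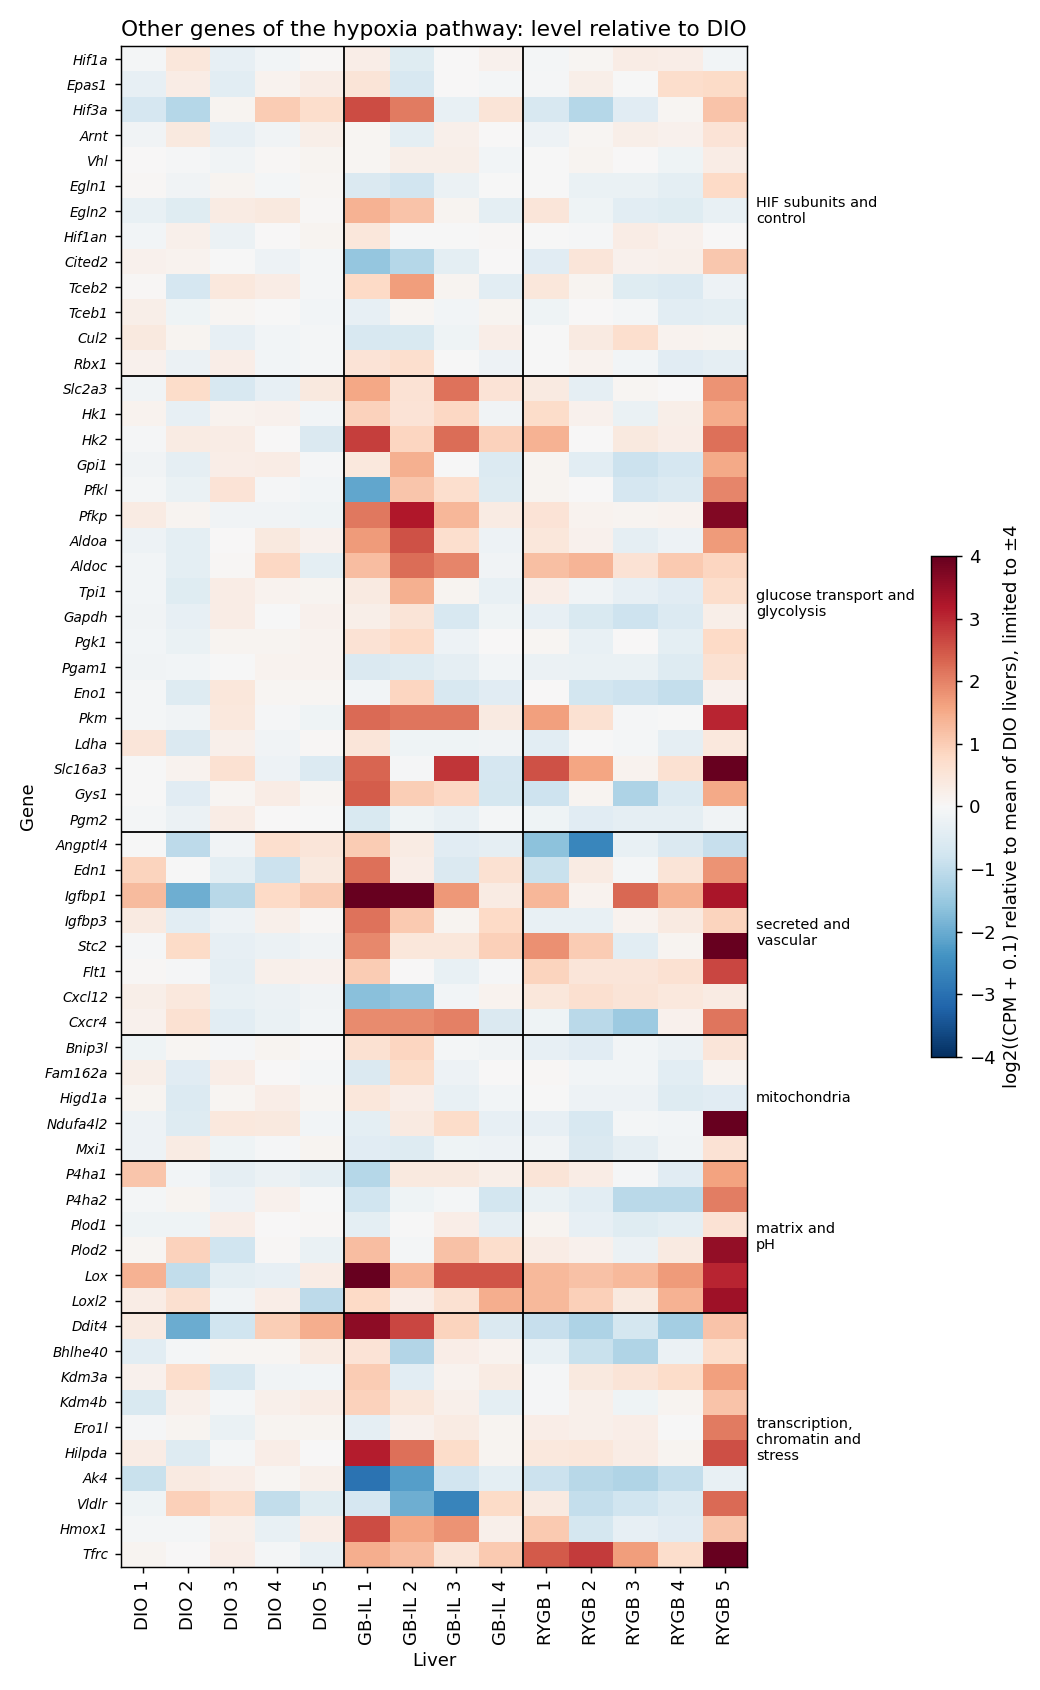
Level of 60 of the 61 other tested genes of the hypoxia pathway in each liver, as log2 of CPM plus 0.1 relative to the mean of the DIO livers, limited to ±4; rows are grouped by role and vertical lines part the groups. RYGB liver 5 is the highest liver for 29 of the 60 genes shown, and *Igfbp1*, *Ddit4* and *Hilpda* are high in GB-IL livers 1 and 2.

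In GB-IL over DIO, 5 of the 61 pathway genes were called higher and 0 lower, as 449 higher and 16 lower were of all 14252 tested genes. *Igfbp1*, which encodes a secreted binding protein of insulin-like growth factors, had 10216, 5514, 149.96 and 56.6 CPM in GB-IL livers 1 to 4 against 11.6 to 108.7 CPM in DIO. Its log2 fold change was 5.99 ± 1.29 (adjusted p = 0.0310 by the edgeR quasi-likelihood fit, corrected after Benjamini and Hochberg), and GB-IL livers 1 and 2 stood far above the other livers. *Hk2*, a hexokinase that starts glycolysis, had 10.1, 2.65, 6.91 and 2.73 CPM, all above the DIO range of 0.913 to 1.77 CPM, with a log2 fold change of 1.96 ± 0.50 (edgeR adjusted p = 0.0480). *Aldoc*, an aldolase of glycolysis, had 16.8, 33.6, 27.1 and 6.27 CPM against 5.34 to 12.6 CPM, with a log2 fold change of 1.503 ± 0.39 (edgeR adjusted p = 0.0466).

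*Hmox1* encodes the heme oxygenase that breaks down heme and also answers oxidative stress. It had 183, 88.4, 104.7 and 34.5 CPM against 24.4 to 35.7 CPM in DIO, and 3 of the 4 GB-IL livers were above every DIO liver. Its log2 fold change was 1.76 ± 0.44 (edgeR adjusted p = 0.0437). *Lox*, the lysyl oxidase that cross-links collagen, had 5.25, 0.395, 1.02 and 1.03 CPM against 0 to 0.419 CPM, with a log2 fold change of 3.79 ± 0.87 (edgeR adjusted p = 0.0340). GB-IL liver 1 held by far the most *Lox*, and without it the log2 fold change was 2.57 ± 0.76 (edgeR adjusted p = 0.129).

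All 5 calls depended on which livers were included. Without GB-IL liver 1 the log2 fold change was 4.94 ± 1.21 for *Igfbp1*, 1.495 ± 0.49 for *Hk2*, 1.59 ± 0.42 for *Aldoc* and 1.32 ± 0.42 for *Hmox1*, with edgeR adjusted p of 0.0845, 0.175, 0.0941 and 0.163. The number of pathway genes called was 0 after leaving out any single DIO liver or either of GB-IL livers 1 and 2, and so was the number over all genes. It was 18 without GB-IL liver 4, 8 without RYGB liver 5, 3 without GB-IL liver 3, likewise 3 without RYGB livers 1 or 2, and 2 without RYGB livers 3 or 4. Over all genes the count was 3572 without GB-IL liver 4, 294 without RYGB liver 3 and 465 with all livers. Over the alternatives, the adjusted p of *Igfbp1* ran from 2.6e-05 with DESeq2 to 0.314 with voom.

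In RYGB over DIO no pathway gene was called by edgeR and 16 of the 61 had an unadjusted p under 0.05, as had 1241 of all 14252. DESeq2 called 2 of 66 and voom 11 of 61, and of all genes 94 of 24635 and 1690 of 14252. *Tfrc*, the transferrin receptor that takes up iron, had the smallest p. It had 81.7, 102.7, 47.1, 24.4 and 263 CPM in RYGB livers 1 to 5 against 11.97 to 17.7 CPM in DIO. All 5 RYGB livers were above all 5 DIO livers, and RYGB liver 5 was 2.56-fold above the next. The 4 GB-IL livers, at 41.0, 34.7, 21.1 and 30.5 CPM, were also above every DIO liver. The log2 fold change of RYGB over DIO was 2.80 ± 0.48 (edgeR adjusted p = 0.218), and 2.11 ± 0.34 without RYGB liver 5 (edgeR adjusted p = 0.152). Over the alternatives its adjusted p ran from 8.8e-06 with DESeq2 to 0.667 with edgeR without DIO liver 5.

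*Loxl2*, a lysyl oxidase of the matrix, was also among those with the smallest p. It had 1.15, 0.888, 0.563, 1.24 and 5.16 CPM in RYGB livers 1 to 5 against 0.144 to 0.689 CPM in DIO. Its log2 fold change was 2.02 ± 0.59 (edgeR adjusted p = 0.383), and 1.11 ± 0.42 without RYGB liver 5 (edgeR adjusted p = 0.846). Between the operations no pathway gene was called by edgeR or voom, 16 of the 61 had an unadjusted p under 0.05, as had 3147 of all 14252, and DESeq2 called 6 of 66. The smallest p values were those of *Igfbp1*, *Tfrc* and *Ddit4*, an inhibitor of growth signalling. Their log2 fold changes of GB-IL over RYGB were 4.40 ± 1.20, −1.71 ± 0.50 and 2.66 ± 0.81, with edgeR adjusted p of 0.0948, 0.107 and 0.114.

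*Hif1a* and *Epas1* encode the alpha subunits, *Arnt* their partner, *Vhl* the ligase subunit that removes them, and *Egln1* and *Egln2* the other prolyl hydroxylases. With all livers, edgeR called none of the 6 in any comparison. Without GB-IL liver 4 it called *Egln2* in GB-IL over DIO and in GB-IL over RYGB (edgeR adjusted p = 0.0378 and 0.0225). *Hif1a* ran from 23.6 CPM in GB-IL liver 2 to 45.9 CPM in DIO liver 2, with 31.0 CPM in RYGB liver 5. *Epas1*, *Arnt* and *Vhl* were highest in RYGB liver 5, at 304, 48.3 and 14.6 CPM, but by only 1.04-fold, 1.12-fold and 1.05-fold over the next liver. *Egln1* was 57.2 CPM in RYGB liver 5 and between 19.5 and 35.9 CPM elsewhere. *Egln2* was 156 and 132 CPM in GB-IL livers 1 and 2 and between 42.4 and 83.0 CPM elsewhere.

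The log2 fold changes over DIO of *Hif1a* were −0.01 ± 0.19 for GB-IL and 0.08 ± 0.18 for RYGB (edgeR adjusted p = 0.989 and 0.925). Those of *Epas1* were −0.03 ± 0.26 and 0.34 ± 0.25 (edgeR adjusted p = 0.958 and 0.729). HIF alpha subunits are controlled mainly as proteins, which were not measured here.

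Of 12686 tested genes with a mean of at least 1 CPM, other than the 10, the 6 whose pattern over the 14 livers lay closest to the mean pattern of the 10 were *Grb10*, *Stard9*, *Plod2*, *Nid1*, *Flt1* and *Ndufa4l2*. The measure was the root mean square distance of standardised log2 CPM, which was 0.329 for *Grb10* and 0.462 for *Ndufa4l2*. The 10 genes themselves lay between 0.460 for *Egln3* and 1.33 for *Pdk1*, so they did not share 1 pattern. In RYGB liver 5 and the next highest liver, *Ndufa4l2*, a subunit-like protein of the respiratory chain, had 71.3 and 2.71 CPM. *Nid1*, of basement membranes, had 132.8 and 25.0 CPM, and *Flt1*, a receptor for the *Vegfa* product, 64.8 and 20.3 CPM. *Plod2*, which hydroxylates collagen and reached a mean of 1 CPM only through RYGB liver 5, had 7.82 and 1.52 CPM, and *Grb10*, an adaptor that damps insulin receptor signalling, 15.7 and 5.78 CPM.

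Marker genes of cell types and zones moved with the same livers. The 11 pericentral hepatocyte markers, led by *Cyp2e1*, summed to 3241 CPM in RYGB liver 5 and to 5090, 3163, 11625 and 11343 CPM in GB-IL livers 1 to 4, against 9136 to 15473 CPM in RYGB livers 1 to 4 and 9810 to 13994 CPM in DIO. RYGB liver 5 was the lowest for 5 of the 11, while *Gulo*, at 623 CPM, was inside the DIO range of that gene and *Axin2*, at 5.68 CPM, above every DIO liver. The 11 periportal markers, led by *Cps1*, summed to 10170 CPM in RYGB liver 5, within the range of 8668 to 16222 CPM of the other livers, but *Cyp2f2*, *Hal*, *Ass1* and *Gls2*, at 223, 252, 1406 and 180.35 CPM, were below every DIO liver, the last 2 below every other liver. Sinusoidal endothelial markers, 8 led by *Stab2*, summed to 586 CPM in RYGB liver 5 and to between 214 and 344 CPM elsewhere, with 5 of the 8 highest there. Vascular endothelial markers, 8 led by *Eng*, summed to 456 CPM in RYGB liver 5, 401 CPM in GB-IL liver 1 and at most 326 CPM in RYGB livers 1 to 4.

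Neutrophil markers, 8 led by *S100a9*, summed to 110.0 CPM in RYGB liver 5 and to 122, 55.97, 364 and 6.46 CPM in GB-IL livers 1 to 4, against at most 12.8 CPM in RYGB livers 1 to 4 and 10.6 CPM in DIO. Erythroid markers, led by *Hbb-bs*, summed to 1833 CPM in RYGB liver 5, and to 114 to 951 CPM in RYGB livers 1 to 4, but DIO spanned 258 to 2308 CPM. Macrophage and Kupffer cell markers, led by *Cd5l*, summed to 849 CPM in RYGB liver 5, inside the DIO range of 515 to 902 CPM, and to 839, 1354, 2411 and 978 CPM in GB-IL livers 1 to 4 and 1263 CPM in RYGB liver 1. The 10 immediate early genes, led by *Zfp36*, summed to 247 CPM in RYGB liver 5, to 736 CPM in GB-IL liver 1 and to between 115.6 and 408 CPM in the others. The sum hid differences between these genes. *Atf3*, *Jun* (49.8 CPM) and *Dusp1* (55.6 CPM) were higher in RYGB liver 5 than in every DIO liver and RYGB livers 1 to 4. GB-IL liver 1 was higher still for *Atf3*, *Jun* and *Dusp1*. In RYGB liver 5 *Fos*, *Egr1* and *Ier2* were above every DIO liver but not above all of RYGB livers 1 to 4. *Zfp36*, *Junb*, *Fosb* and *Myc* were inside their DIO ranges there. Stellate cell and fibroblast markers, led by *Dcn*, summed to 537 CPM in RYGB liver 5, 943 CPM in GB-IL liver 1 and 300.4 to 394 CPM in RYGB livers 1 to 4. In GB-IL liver 1, the liver with skeletal muscle RNA, *Des* alone held 243 CPM of that sum, against at most 12.7 CPM in any other liver. Cholangiocyte markers, led by *Spp1*, summed to 58.3 CPM in RYGB liver 5, 324, 269.8, 219.98 and 67.7 CPM in GB-IL livers 1 to 4 and 34.4 to 67.4 CPM in DIO. *Spp1* made up most of the GB-IL sums, at 286, 216, 205 and 49.5 CPM. In GB-IL liver 3 *Krt7* and *Krt19*, at 2.08 and 3.39 CPM, were above every DIO liver. *Epcam* and *Sox9*, at 1.61 and 6.15 CPM, were inside their DIO ranges there, and *Krt23*, at 0.339 CPM, was below every DIO liver. Sums of RYGB liver 5 inside the range of the other livers were 2.32 CPM for T and B cells, led by *Cd79b*, 10.4 CPM for the cell cycle, led by *Mki67*, 13.9 CPM for adipose tissue, led by *Cidec*, and 3616 CPM for small intestine, led by *Apob*, which liver also expresses. In RYGB liver 5 the skeletal muscle, squamous epithelium and exocrine pancreas sums were 1.42, 1.04 and 6.99 CPM, and *Ckm*, *Krt13* and *Krt5* were at 0. In whole liver, fewer cells of a type and less RNA per cell cannot be told apart, and the part of these cell types in the levels of the 10 genes was not tested.

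The promoters of the 10 genes were searched for the core of the HIF binding sequence, ACGTG or GCGTG, on both strands. Overlapping matches were each counted, so CACGTG holds a match on either strand. Windows ran from 250 bases before to 50 bases after each RefSeq start (GRCm38.p6). Of the 10 genes 9 matched an entry, all but *Ndrg1*, with 12 windows in all, and 10 of the 12 windows, from all 9 genes, held at least 1 match. Of all 32851 windows of the same length, 14380 (43.8%) held a match. The 10 genes were chosen for their known response to low oxygen, so nothing about RYGB liver 5 is read from these shares. *Pfkfb3*, *Pfkfb4* and *Pdk1*, which were not highest in that liver, held matches too. The 250 bases before the start are shown for the genes in which RYGB liver 5 stood furthest above the other livers, *Ankrd37* and *Egln3*, for *Bnip3*, which had the most matches in 1 window, and for the first *Vegfa* start, which had none; capitals mark matches on either strand.
Ankrd37, chr8:45999851-46000100, minus strand: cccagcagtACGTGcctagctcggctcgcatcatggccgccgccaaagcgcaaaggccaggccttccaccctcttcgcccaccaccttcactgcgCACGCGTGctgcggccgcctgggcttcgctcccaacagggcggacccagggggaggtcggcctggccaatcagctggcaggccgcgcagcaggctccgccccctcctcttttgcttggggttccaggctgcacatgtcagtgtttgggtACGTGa
Egln3, chr12:54203875-54204124, minus strand: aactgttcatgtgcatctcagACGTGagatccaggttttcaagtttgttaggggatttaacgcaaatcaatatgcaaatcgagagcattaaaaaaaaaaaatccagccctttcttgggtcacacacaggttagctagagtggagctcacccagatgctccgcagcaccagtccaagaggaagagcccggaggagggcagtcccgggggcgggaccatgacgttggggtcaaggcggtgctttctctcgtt
Bnip3, chr7:138909507-138909756, minus strand: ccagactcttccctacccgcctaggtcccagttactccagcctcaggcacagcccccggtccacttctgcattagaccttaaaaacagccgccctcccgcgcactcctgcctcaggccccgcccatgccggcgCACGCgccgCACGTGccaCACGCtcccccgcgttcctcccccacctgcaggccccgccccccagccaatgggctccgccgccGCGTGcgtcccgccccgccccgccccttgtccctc
Vegfa, chr17:46032378-46032627, minus strand: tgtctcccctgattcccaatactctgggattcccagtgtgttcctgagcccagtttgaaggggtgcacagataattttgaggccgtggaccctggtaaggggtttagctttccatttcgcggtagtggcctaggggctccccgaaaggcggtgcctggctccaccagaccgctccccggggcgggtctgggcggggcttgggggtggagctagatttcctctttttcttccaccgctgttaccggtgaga
The *Ankrd37* window held 4 matches, the nearest 6 bases before the start, *Egln3* 1 and *Bnip3* 5. The second *Vegfa* window, at a later start, held 2. A match describes these letters only, and binding was not measured.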

How the data were processed

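Liver RNA of 14 mice (5 DIO, 4 GB-IL, 5 RYGB) was sequenced by the authors, with TopHat2 alignment to mm10 and HTSeq counting. The deposited values are whole-number read counts per gene, not normalised. The labels name 2 kits and do not say which was used for which liver. The paper describes a workflow of NuGEN Ovation amplification followed by Illumina TruSeq library preparation. Samples were grouped by their labels. Tests used edgeR 4.0.16 (R 4.3.3). Genes with low counts were removed by filterByExpr (14252 of 25212 genes kept), libraries were scaled by TMM, and the quasi-likelihood test was fitted to all 14 livers with a mean per group and Benjamini-Hochberg adjustment over all tested genes (false discovery rate 0.05). Total counts ran from 18223135 to 28656631 per liver. The steps were tested on simulated data. No pair of libraries in a group agreed within sampling noise (lowest chi-square per degree of freedom 24.5).

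Alternatives were RLE scaling, DESeq2 1.42.0 (with its own filtering, on 24635 genes), voom with sample quality weights (limma 3.58.1), no filter on low counts, a fit of the compared groups alone, a replicate block and each liver left out in turn. Leaving out GB-IL liver 1 and RYGB liver 5 together was added after seeing the data. Gene positions came from GENCODE M21, which matched 24701 of the 25212 gene identifiers.

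The 10 genes, the 66 other pathway genes and 18 marker lists were chosen with earlier results of these data known. Genes were named by rule: the 10; called pathway genes, or the 3 with the smallest p where none was called; *Hif1a*, *Epas1*, *Arnt*, *Vhl*, *Egln1* and *Egln2*; the 6 closest in pattern; and the most abundant gene of each printed marker list. Other names were chosen after their values were seen. Of the tested pathway genes 1 is part of the counts and medians but is otherwise not reported here and has no row in the figure.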

Additional observations from a re-analysis of the deposited data

Results flagged for a closer look

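Of 63 sets of livers examined (21 genes in 3 groups), 12 held a liver far from the rest of its group. Chance flags about 1 in 20, but the genes were chosen with these values in view, so the number is not set against that rate. Of the 12, 6 were RYGB liver 5 in genes of the 10: *Adm* at 12.4 CPM (others of its group at most 1.97), *Bnip3* at 448 CPM (at most 208), *Egln3* at 102.6 CPM (at most 18.5), *Ankrd37* at 12.8 CPM (at most 2.24), *Pfkfb3* at 34.4 CPM (at most 15.3) and *Slc2a1* at 39.2 CPM (at most 12.7). The same liver was far above its group for *Egln1*, at 57.2 CPM against at most 32.97, and for *Lox*, at 1.52 CPM against at most 0.538. Neither the cause nor a link to the pericentral and endothelial markers of that liver was tested.

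The other livers that stood out were DIO liver 1 for *Ndrg1* (19.1 CPM, others at most 10.3), RYGB liver 1 for *Egln2* (83.0 CPM, others at most 53.1), DIO liver 4 for *Aldoc* (12.6 CPM, others at most 7.23) and GB-IL liver 1 for *Lox* (5.25 CPM, others at most 1.03).

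For *Vegfa* and *Egln3* the operated groups lay on opposite sides of the DIO mean. Every GB-IL liver was below it and every RYGB liver above it, with a log2 fold change of GB-IL over RYGB of −0.98 for *Vegfa* and −1.49 for *Egln3*, and of −0.60 and −0.50 without RYGB liver 5. With all livers neither gene was called in that comparison, in which edgeR called 0 of 14252 genes. Over the 21 alternatives the estimate ran from −1.13 to −0.60 for *Vegfa* and from −1.67 to −0.50 for *Egln3*, with no change of sign. Because every GB-IL liver was below every RYGB liver for both genes, leaving out livers could hardly change the sign. The constant sign therefore adds no support. The side of GB-IL rested on little: its log2 fold change over DIO changed sign in 2 of 21 alternatives for *Vegfa* and 1 of 21 for *Egln3*, and GB-IL livers 1 and 3, at 94.3 and 93.0 CPM of *Vegfa*, were above the DIO median of 91.7 CPM.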

How the results depend on the processing

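For GB-IL over DIO, the 465 genes called over all genes became 1347 with DESeq2 (which was fitted without the filter on low counts, on 24635 genes and all 66 of the pathway), 0 with the compared groups fitted alone, 67 with GB-IL liver 1 and RYGB liver 5 both left out (an alternative added after seeing the data), and 0 to 3572 with 1 liver left out. The 5 pathway genes became 11, 0, 0 and 0 to 18, and 2 with voom; the 1 call among the 10 genes became 2, 0, 0 and 0 to 3. For RYGB over DIO, the 0 genes called became 94 with DESeq2, 1690 with voom, 33 with the groups fitted alone and 0 to 5 with 1 liver left out; pathway calls became 2 with DESeq2, 11 with voom and 0 to 1, and among the 10 genes 1 with voom and 0 to 0. For GB-IL over RYGB, the 0 genes called became 884 with DESeq2, 115 with voom, 51 with no filter on low counts and 0 to 3120 with 1 liver left out; pathway calls became 6 with DESeq2 and 0 to 11, and among the 10 genes 0 to 2.

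Medians with 1 liver left out ran, for the 10 genes, from −0.09 to 0.17 (GB-IL over DIO), 0.35 to 0.95 (RYGB over DIO) and −0.29 to 0.11 (GB-IL over RYGB), and for the pathway from 0.15 to 0.40, −0.053 to 0.40 and 0.0026 to 0.35. With GB-IL liver 1 and RYGB liver 5 both left out, the RYGB medians were 0.34 for the 10 genes and −0.063 for the pathway, and the pathway median of GB-IL over RYGB was 0.33; with voom the pathway median of RYGB over DIO was −0.054. The replicate block left 1 gene called over all genes in GB-IL over DIO, 0 pathway genes and 0 of the 10. The livers share only a number: of 13 pairs with the same number, correlations of deviations ran from −0.381 to 0.381, 2 were over 0.1, and 1 of 14 livers correlated best with its own number.

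The cause of each change was not tested. RNA was measured in whole liver, at 1 time, with no sham-operated group among these libraries. The labels name 2 kits without tying them to livers, so whether the libraries differed in kit is not known. A liver that stands apart in a group of 4 or 5 sets that group's mean and the spread shared by all groups. *Adm*, *Ankrd37* and *Pfkfb4* rest on few reads, from 4 in *Ankrd37* in DIO liver 5 and GB-IL liver 1. Low oxygen itself, protein and zonation were not measured. Glycolytic genes with near-identical pseudogene copies, such as *Gapdh* and *Pgam1*, are uncertain.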

Other observations

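RYGB liver 5 differed from the other livers in more than the 10 genes. At least 2-fold above every other liver and at 5 CPM or more, it held 81 genes, of which 2 were of the 10 and 11 of the pathway list. The names that follow were chosen after their values were seen, and each pair of values is RYGB liver 5 and the next highest liver. Vessel genes were among them: *Vwf*, the clotting factor carrier of endothelium, had 110.3 and 29.9 CPM, *Angpt2*, an antagonist of vessel stability, 8.17 and 1.98 CPM, *Dll4*, a Notch ligand of sprouting vessels, 16.1 and 5.04 CPM, and *Notch4* 16.9 and 5.96 CPM. Of the 8 vascular endothelial markers, which include *Vwf*, 5 were highest in RYGB liver 5. *Plvap*, at 47.7 CPM, was inside its DIO range, and *Eng* and *Esam* were higher in GB-IL liver 1. Of the 8 sinusoidal markers 5 were highest in RYGB liver 5, but *Clec4g*, at 37.8 CPM, was below every DIO liver. Pericyte genes *Rgs5*, *Abcc9* and *Kcnj8* had 196 and 60.0, 123 and 49.0, and 30.2 and 14.6 CPM. *Pdgfrb*, *Des* and *Acta2*, also markers of mural and stellate cells, were at 9.76, 4.43 and 2.73 CPM in RYGB liver 5, inside the range of the other livers. Matrix genes *Postn* and *Col12a1* had 116.7 and 22.3 CPM and 33.5 and 2.24 CPM.

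*Apoa4*, a hepatocyte and gut gene of lipid transport, was also on that list, with 4315 and 1516 CPM.

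*Epo*, which encodes erythropoietin, had too few reads over all livers to be tested. It had 122 reads in RYGB liver 5, 5 in GB-IL liver 3 and 0 in the other 12 livers; its annotated exons share 104 bases with *Gnb2* on the same strand. *Cox4i2*, a respiratory chain subunit linked to low oxygen, had 27 reads in RYGB liver 5 and at most 4 in any other liver. Other pathway genes high in that liver were *Stc2* at 7.34 CPM, 6.65-fold above the next liver, *P4ha2* at 36.7 CPM, 3.66-fold above, *Ero1l* at 87.2 CPM, 3.42-fold above, and *Slc16a3*, a lactate exporter, at 14.4 CPM, 3.20-fold above.

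Some genes were high or low in GB-IL livers 1 and 2. *Ddit4* had 158 and 83.4 CPM there and at most 35.9 CPM elsewhere. *Hilpda*, a lipid droplet protein, had 18.4 and 9.54 CPM, with 12.5 CPM in RYGB liver 5 and at most 3.35 CPM in the others. *Ak4*, a mitochondrial adenylate kinase, was low there, at 12.6 and 21.2 CPM, against 42.6 to 127 CPM in the other 12 livers. In both of these livers *Vegfa* and *Egln3* were within or below the DIO range.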
